A study of Rattus norvegicus with 4 samples.

Results

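The mRNA of 7 rat genes that regulate MAP kinase and stress kinase signalling, Dusp1, Dusp6, Gadd45a, Gadd45g, Sgk1, Mapk6 and Hipk3, was followed in the liver 1 h after the common bile duct was tied. The members were all probes whose platform annotation gives exactly 1 of these symbols, which are 14 of the 1936 probes on the array, for 7 of its 958 named genes. Sgk1 had 4 probes, Dusp6 had 3, Dusp1 and Gadd45a had 2 each, and Gadd45g, Mapk6 and Hipk3 had 1 each. The genes were chosen by their pathway with their ligated over sham log ratios in view, so these values are given as a description and not as a test.

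Male Sprague-Dawley rats of 250 to 300 g formed both groups, and the labels state a weight but no age. Ligated animals had it tied between liver hilus and intestine, and sham animals had the duct exposed but not tied. The groups shared ether anaesthesia, laparotomy, free access to food and the 1 h interval. Liver RNA was pooled over groups of 3 rats, and the poly(A) RNA of a ligated and a sham pool was labelled with Cy3 and Cy5 and hybridised together on each of 4 two-colour cDNA arrays. On arrays 1 and 3 the ligated pool was the Cy5 one, on arrays 2 and 4 the Cy3 one. The labels do not say whether the 4 arrays came from separate pools, so no error below measures the spread between rats. Every error rests on variance between arrays of pooled RNA, most of it drawn from all probes together and not from the probe itself.

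The log base and direction of the deposited ratios are not stated. They were read as ligated over sham, the likely direction, because the labels name sham as the first and ligated as the second channel on every array. If the ratio ran the other way, every sign below would turn. Array medians were between -0.88 and 0.87 and followed the dye, being negative where the ligated pool carried Cy5. Across probes, arrays of the same orientation correlated at 0.86 to 0.94 and arrays of opposite orientation at -0.93 to -0.77, and read instead as Cy5 over Cy3 on every array Mapk6 would have 0.14, Hipk3 0.79, Dusp1 probe 291 1.12 and Sgk1 probe 342 1.06. Each array was therefore centred on its median, and the estimate for a probe is its mean over both dye orientations, with the standard error (SE) from limma. Ratios carry no expression level, so the identity of the tissue could not be checked against marker levels, and in bulk RNA fewer cells of a type and less RNA per cell cannot be told apart.

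MAP kinases are switched on by phosphorylation of their activation loop and switched off when phosphatases remove it. Dusp1 and Dusp6 encode dual-specificity phosphatases of this kind: Dusp1 is a nuclear enzyme made within minutes of growth factor or stress signals that acts mainly on p38 and JNK, and Dusp6 is a cytoplasmic enzyme that acts on ERK. Gadd45a and Gadd45g encode small stress-inducible proteins that bind and activate the kinase MAP3K4 upstream of p38 and JNK. Sgk1 encodes a serine/threonine kinase induced by glucocorticoids and cell stress, Mapk6 the atypical MAP kinase ERK3, and Hipk3 a homeodomain-interacting protein kinase.

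Mapk6 and Hipk3 had the highest estimates of the 14 probes, 0.41 ± 0.08 and 0.36 ± 0.08 (SE, n = 4 arrays). They were number 9 and number 11 from the top among all 1936 probes. The lowest were Dusp1 probe 291 at -0.43 ± 0.10 and Sgk1 probe 342 at -0.31 ± 0.09, both from a stretch of the array where many probes read low on array 2. The other 10 probes were between -0.10 and 0.20. The median over the 14 was 0.0078, against -0.02 over all probes, and 7 estimates were above 0 and 7 below. At an adjusted p of 0.05 in limma, 4 of the 14 passed, 2 higher and 2 lower. Over all probes 5.73% passed, 0.93% higher and 4.8% lower. Since the choice of genes used this same contrast, nothing is read from that count.

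**Figure D1:**
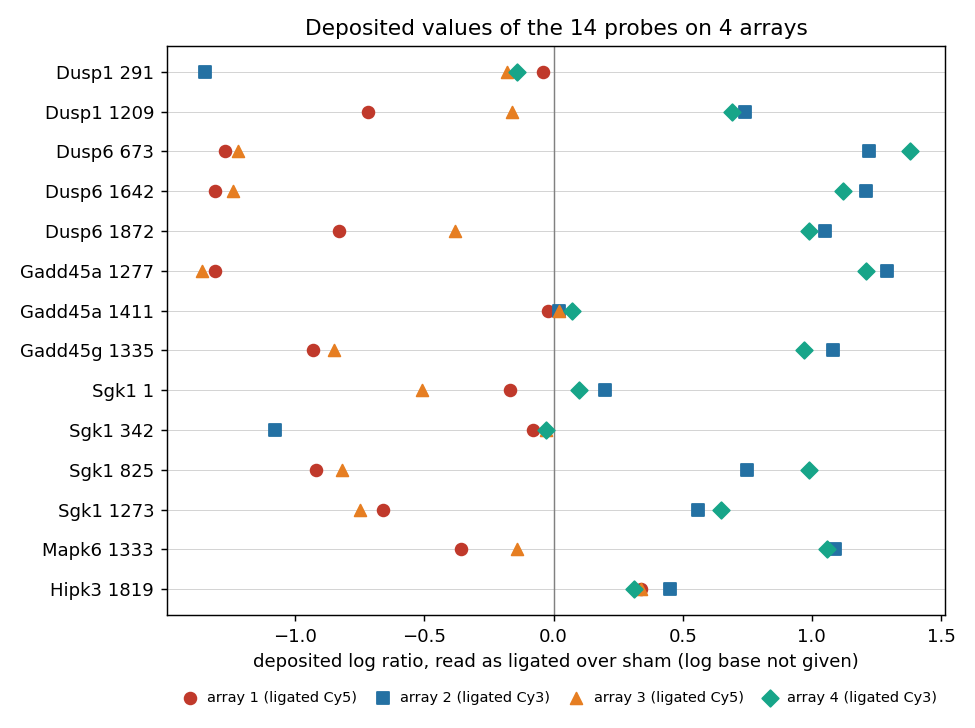
Deposited log ratio (x axis, base not given) of each of the 14 probes (rows, gene and probe number), with 1 point per array; circles and triangles are arrays with the ligated pool in Cy5, squares and diamonds those with it in Cy3. Most rows part into a Cy5 and a Cy3 side, whereas Hipk3 lies between 0.31 and 0.45 on all 4 arrays, and array 2 stands alone at -1.35 for Dusp1 probe 291 and -1.08 for Sgk1 probe 342.

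Mapk6 was represented by probe 1333. Its deposited log ratios were -0.36 and -0.14 on arrays 1 and 3 and 1.09 and 1.06 on arrays 2 and 4. These values part by dye, like those of most probes, and the sign became the same on every array only after centring, at 0.52, 0.34, 0.58 and 0.19 on arrays 1 to 4. Above 0 on all 4 centred arrays were 1.5% of all probes. The mean of an array of each dye orientation was between 0.35 and 0.46 for the 4 such pairs that could be formed. The estimate would be 1.32-fold if the base of the log is 2. Leaving out each array in turn gave 0.37 to 0.44.

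Hipk3 probe 1819 behaved differently with respect to the dye. Its deposited log ratios were 0.34, 0.45, 0.34 and 0.31 on arrays 1 to 4, so it was above 0 in both orientations, as were 0.981% of all probes. The same sign on all 4 arrays as deposited was seen at 3 of the 14 probes (Hipk3 above 0, Dusp1 probe 291 and Sgk1 probe 342 below) and at 6.92% of all probes, and on all 4 centred arrays at 2 of the 14 (Mapk6 and Dusp6 probe 1872) and at 1.91%. The difference between orientations was close to nil, with a dye contrast of -0.02 (the mean with the ligated pool in Cy5 minus the mean over both orientations), where the median probe had -0.81. Centring, which moves every probe by the array median, spread its values to 1.21, -0.30, 1.07 and -0.56 and left the estimate at 0.36, or 1.28-fold at base 2. Leaving out each array gave 0.29 to 0.42. On centred arrays, relative to the other probes, the dye contrast was 0.79 for Hipk3 and 0.14 for Mapk6, so Hipk3 departed further from the usual dye effect than Mapk6 did.

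The start regions of these genes differ in base composition and in motifs. Shown are the windows from 250 bases before to 50 bases after the RefSeq start sites in GRCr8 of Mapk6 (chr8:85050187-85050486, minus strand) and Hipk3 (chr3:111321143-111321442, minus strand), the probes with the highest estimates, and of Dusp1 (chr10:17184603-17184902, plus strand), the member with a full cAMP response element. Letters run 5′ to 3′ on the strand of the gene, and capitals mark every match, on either strand, to the motifs searched.
Mapk6: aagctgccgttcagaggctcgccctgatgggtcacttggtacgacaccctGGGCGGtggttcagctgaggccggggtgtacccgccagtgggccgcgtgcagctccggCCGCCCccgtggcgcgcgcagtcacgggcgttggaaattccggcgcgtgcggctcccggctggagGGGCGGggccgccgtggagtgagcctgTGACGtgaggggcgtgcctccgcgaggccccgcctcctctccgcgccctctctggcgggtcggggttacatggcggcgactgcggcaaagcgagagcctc
Hipk3: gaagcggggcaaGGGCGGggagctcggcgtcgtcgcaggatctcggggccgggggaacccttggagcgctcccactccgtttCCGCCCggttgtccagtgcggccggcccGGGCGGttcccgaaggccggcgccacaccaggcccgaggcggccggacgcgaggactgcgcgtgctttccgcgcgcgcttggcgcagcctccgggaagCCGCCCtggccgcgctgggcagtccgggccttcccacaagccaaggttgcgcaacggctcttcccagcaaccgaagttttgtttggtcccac
Dusp1: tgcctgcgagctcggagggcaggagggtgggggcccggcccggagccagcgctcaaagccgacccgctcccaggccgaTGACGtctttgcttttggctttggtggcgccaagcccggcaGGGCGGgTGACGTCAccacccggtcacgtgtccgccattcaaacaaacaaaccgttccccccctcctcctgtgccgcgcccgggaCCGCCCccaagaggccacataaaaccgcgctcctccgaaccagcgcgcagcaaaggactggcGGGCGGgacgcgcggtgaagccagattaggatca
The motifs were the cAMP response element TGACGTCA, its core TGACG, the AP-1 site TGANTCA, the GC box GGGCGG, the TATA box TATAAA, the CArG box bound by serum response factor, the inverted repeat bound by the bile acid receptor FXR, and the glucocorticoid response element. The core lies within the full element, so the full element also counts as a core. Dusp1 held the full element from -124 to -117, which 1.83% of 33469 RefSeq windows of the same length hold. A core was found in Dusp1, in Mapk6 from -50 to -46 and in Gadd45a from -128 to -124. These are 3 of the 9 windows of the 7 genes, and 21.2% of all windows hold one. GC boxes were found in Mapk6, Hipk3, Dusp1, Gadd45a and Sgk1, in 6 of the 9 windows, against 33.1% of all windows. GC content was 73% for Mapk6, 72.7% for Hipk3, 68% for Dusp1, 64.3% for Gadd45g, 60.3% for Gadd45a and 57.7% for Dusp6, and 40.7%, 51.7% and 66% for the 3 Sgk1 starts. A TATA box was found at Gadd45g and at 2 of the 3 Sgk1 starts (14.2% of windows), and an AP-1 site at 1 Sgk1 start (7.33%). No CArG box, FXR repeat or glucocorticoid response element was in the windows of the 7 genes (1.64%, 0.0269% and 0.0149% of all windows). Dusp6 held none of the motifs searched. These matches describe letters in the windows and are no evidence of binding.

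Among the phosphatases, the 2 probes of Dusp1 gave opposite signs. Probe 291 had deposited values of -0.04, -1.35, -0.18 and -0.14 on arrays 1 to 4, and probe 1209 had -0.72, 0.74, -0.16 and 0.69. Array 2 stood apart at probe 291, whereas the values of probe 1209 parted by dye. The estimates were -0.43 ± 0.10 and 0.13 ± 0.09. Without centring, probe 291 had -0.43 ± 0.21. Without replicate 2, probe 291 came to -0.16 ± 0.09, and without replicate 4 to -0.71 ± 0.09. Averaged over both probes, Dusp1 had -0.15 ± 0.08 in a fit on 958 genes, a value that describes neither probe.

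Dusp6 was measured at 3 probes. Probe 673 had -1.27, 1.22, -1.22 and 1.38 on arrays 1 to 4, and probe 1642 had -1.31, 1.21, -1.24 and 1.12. Both followed the dye closely and had estimates of 0.02 ± 0.08 and -0.06 ± 0.08. Probe 1872 had -0.83, 1.05, -0.38 and 0.99, with less of a dye effect. It was above 0 on all 4 centred arrays (0.05, 0.30, 0.35 and 0.12), with an estimate of 0.20 ± 0.09, number 31 from the top of all probes. Whether the 3 clones differ beyond their errors was not tested, and which transcript stretch each covers is not stated.

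The Gadd45 genes stayed near 0. Gadd45a probe 1277 had -1.31, 1.29, -1.36 and 1.21 on arrays 1 to 4, and probe 1411 had -0.02, 0.02, 0.02 and 0.07. These spots of 1 gene had very different dye contrasts, -1.29 and -0.02, and yet close estimates of -0.05 ± 0.08 and 0.02 ± 0.08. Gadd45g probe 1335 had -0.93, 1.08, -0.85 and 0.97, with an estimate of 0.06 ± 0.08. For all 3 probes the estimate was smaller than its SE, so a difference between ligated and sham was not detectable with 4 arrays.

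Of the 4 Sgk1 probes, probe 342 stood apart from the rest. It had -0.08, -1.08, -0.03 and -0.03 on arrays 1 to 4, with 3 arrays near 0 and array 2 far below, and an estimate of -0.31 ± 0.09. Without centring the estimate was -0.30 ± 0.18. Without replicate 2 it was -0.07 ± 0.09, and without replicate 4 it was -0.54 ± 0.09. Probe 1 had -0.17, 0.20, -0.51 and 0.10 and an estimate of -0.10 ± 0.09. Probes 825 and 1273 had deposited values from -0.92 to 0.99 and from -0.75 to 0.65, parted by dye, and estimates of 0.00 ± 0.08 and -0.06 ± 0.08. The mean over the 4 probes was -0.12 ± 0.08 in the fit on genes.

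Both low probes, Dusp1 probe 291 and Sgk1 probe 342, lie in the third of 16 blocks of 121 consecutive probe numbers. In this block the median deviation from the curve that relates each array to the dye was -0.83 on array 2, and between -0.26 and 0.27 on arrays 1, 3 and 4. The deviations of Dusp1 probe 291 were -0.90 on array 2 and -0.26, -0.34 and 0.19 on arrays 1, 3 and 4. Those of Sgk1 probe 342 were -0.71 and -0.23, -0.15 and 0.23. Both probes thus moved with their block on every array. Blocks 3 and 4 together hold 242 probes, of which 29.3% passed as lower, against 4.8% of all probes. When a dye curve was fitted in each block and subtracted (block-wise correction), Dusp1 probe 291 had -0.09 ± 0.04 and Sgk1 probe 342 had 0.02 ± 0.03, and neither passed.

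**Figure D2:**
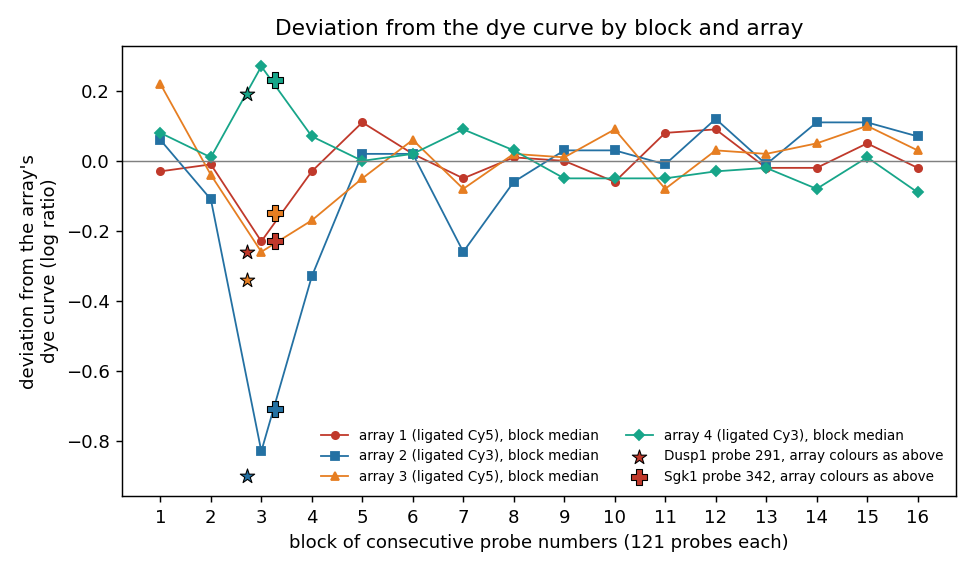
Median deviation from the array's dye curve (y axis, log ratio) in each of 16 blocks of 121 probes (x axis), 1 line per array, with Dusp1 probe 291 (stars) and Sgk1 probe 342 (crosses) beside block 3 in the colours of the arrays. Block 3 is at -0.83 on array 2, and the 2 probes lie near their block on each array.

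After block-wise correction, Mapk6 had 0.36 ± 0.05, Hipk3 0.46 ± 0.04 and Dusp6 probe 1872 0.17 ± 0.05. Their places among all probes were 12, 8 and 48. These 3 of the 14 probes passed, all higher, where 6.46% of all probes passed, 3.2% higher and 3.25% lower. Nothing is read from this count either, because the genes were chosen with the same contrast in view. The remaining 11 were between -0.14 and 0.13. Dusp1 probe 1209, the highest of them, had 0.13 ± 0.04, and Sgk1 probe 1, the lowest, had -0.14 ± 0.07. Gadd45a probe 1277 and Gadd45g came to 0.00 ± 0.03 and 0.00 ± 0.04. With a single dye curve per array, Mapk6 had 0.40 ± 0.05, Hipk3 0.42 ± 0.05, Dusp1 probe 291 -0.33 ± 0.18 and Sgk1 probe 342 -0.21 ± 0.16. The 2 high members thus had similar values under each correction, and the 2 low ones were nearer to 0 after block-wise correction, where Dusp1 probe 291 was number 1771 from the top.

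**Figure D3:**
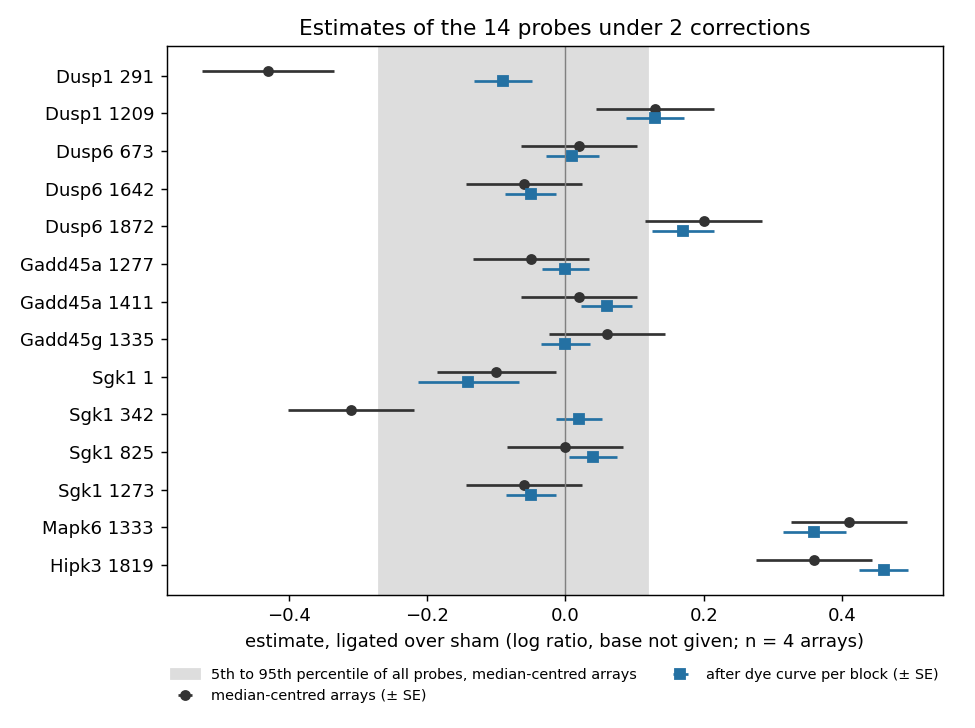
Estimate with SE (x axis, log ratio, n = 4 arrays) of each probe (rows) on median-centred arrays (circles) and after block-wise correction (squares), with the 5th to 95th percentile of all probes on centred arrays shaded (-0.27 to 0.12). Mapk6 (0.41 and 0.36) and Hipk3 (0.36 and 0.46) are right of the band by either correction, while Dusp1 probe 291 (-0.43 and -0.09) and Sgk1 probe 342 (-0.31 and 0.02) leave the low side.

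Probes of the same gene disagreed by 0.56 for Dusp1, 0.30 for Sgk1, 0.26 for Dusp6 and 0.07 for Gadd45a (highest minus lowest estimate). Over the 340 genes with several probes the median of this range was 0.10. These genes were not matched for number of probes, and a range tends to widen with more probes. After block-wise correction the ranges were 0.22, 0.18, 0.23 and 0.06, against a median of 0.06. Outside blocks 3 and 4, Sgk1 came down to 0.09 and Dusp6 stayed at 0.26, with a median of 0.08 over 282 genes. Dusp6 has no probe in those blocks, so its range could not change. Sgk1 lost its lowest probe, 342, and Dusp1 kept a single probe and had no range. Nothing is concluded from this step.

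Genes whose 4 centred values lay nearest to those of a member were found by Euclidean distance over the 4 arrays among 951 other genes, with probes averaged. Nearest to Mapk6 were Ccn2, the connective tissue growth factor (0.39, 0.33, 0.55 and 0.13; distance 0.138), and Fos, a subunit of AP-1 (0.32, 0.40, 0.57 and 0.23; distance 0.208). Both were above 0 on all 4 centred arrays, as Mapk6 was, which follows from their choice by distance to its values. Nearest to Hipk3 were Avpr1a, a vasopressin receptor (1.05, -0.33, 1.11 and -0.66; 0.198), and Slc28a2, a nucleoside transporter (1.37, -0.15, 1.21 and -0.32; 0.353). Nearest to Dusp1 were Ppp5c (0.178) and Mapk12 (0.189), at -0.94 and -1.06 on array 2, where Dusp1 was at -1.06. That Dusp1 value averages both probes, with probe 291 in block 3. Nearest to Dusp6 were Rps6kb1 and RGD1566355 (0.0872 and 0.0892), to Gadd45a Becn1 and Dnaja1 (0.0471 and 0.0636), to Gadd45g Ptpn2 and Clec10a (0.0639 and 0.0706), and to Sgk1 Mecr and Srsf5 (0.140 and 0.155). These distances rest on 4 arrays that share the dye effect, so likeness in dye counts as much as likeness in the response. The genes were picked for their likeness to a member, so that likeness is no separate evidence.

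The genes upstream and downstream of these regulators were taken from 6 lists with 70 measured genes and 103 probes, the 7 genes left out. At an unadjusted p of 0.05 in limma, 2 of the 103 probes were higher and 15 lower. Of all 1936 probes 277 passed that level in either direction, the background for the unadjusted counts of each list below. At an adjusted p of 0.05, 1 of the 103 rose and 8 fell. Over all probes 0.93% passed higher and 4.8% lower. All 8 that fell lie in blocks 3 and 4, which hold 16 of the 103. In a fit without these blocks 2 phosphatase and 2 kinase probes of the lists fell, and 109 of all probes fell and 26 rose. After block-wise correction 3 rose and 3 fell, near the 3.2% and 3.25% of all probes. Of these, Mapk14 and Prkcz fell by both corrections and Fos rose by both.

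In the MAP kinase cascade, 13 genes were measured at 17 probes, with a median of -0.025. None rose and 2 fell (0 and 2 at an unadjusted p of 0.05). Mapk14, the p38α kinase that Dusp1 inactivates, had deposited values of -0.46, -0.96, -0.81 and -0.15 on arrays 1 to 4, below 0 on every array in both dye orientations. The same sign on all 4 arrays as deposited was seen at 6.92% of all probes. On centred arrays Mapk14 had 0.42, -1.71, -0.08 and -1.02. It fell by 0.60 ± 0.09 (limma adjusted p = 9.69e-07), and by 0.31 ± 0.06 after block-wise correction (adjusted p = 0.0158). The call ended without replicate 3 (-0.47, adjusted p = 0.135) and without the dye term (-0.60). It also ended without centring (-0.59, adjusted p = 0.349) and with a dye curve per array (-0.54, adjusted p = 0.422). Egfr, the epidermal growth factor receptor, fell at probe 327 by 0.31 ± 0.09 (adjusted p = 0.0265) but had -0.01 ± 0.04 after that correction, and its other probe had -0.12 ± 0.09. The largest of the remaining probes was that of Mapk12, another p38 kinase, at -0.15 ± 0.08 (adjusted p = 0.429), and -0.05 ± 0.04 after block-wise correction. The call of Egfr ended without replicate 1 (-0.31), replicate 2 (-0.06) or replicate 3 (-0.31). In fits without replicate 1 or 3 the SE, shared by all probes, was 0.14. There the call of Egfr ended with the larger SE and not with a changed estimate.

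Of the other protein phosphatases, 10 genes were measured at 15 probes, with a median of -0.048, and 2 probes fell and none rose (5 and 0 at an unadjusted p of 0.05). Ptp4a2, a small membrane-bound tyrosine phosphatase, fell by 0.41 ± 0.09 and Ppp5c, protein phosphatase 5, by 0.35 ± 0.09 (limma adjusted p = 0.00199 and 0.0092). Both lie in block 3 and had -0.07 ± 0.04 and -0.04 ± 0.04 after block-wise correction (adjusted p = 0.277 and 0.646), and a second probe of Ppp5c had 0.05 ± 0.09. Neither call held without replicate 1, 2 or 3 (-0.16 and -0.09 without replicate 2). Without replicate 1 or 3 the SE shared by all probes was 0.14. After that correction Ppp1ca, a catalytic subunit of protein phosphatase 1, fell by 0.16 ± 0.04 at probe 1665 (adjusted p = 0.023), where centred arrays gave -0.19 ± 0.09 (adjusted p = 0.225). Its other probe had -0.10 ± 0.08. Ppp2cb, a catalytic subunit of protein phosphatase 2A, had -0.27 ± 0.10 at its block 3 probe (adjusted p = 0.0897), -0.02 ± 0.05 there after block-wise correction, and -0.04 ± 0.08 at its other probe. In the fit without blocks 3 and 4 Ppp1ca probe 1665 fell by 0.22 ± 0.07 (adjusted p = 0.0125).

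Of the other kinases, 28 genes were measured at 42 probes, with a median of -0.01, and 2 probes fell and none rose (4 and 0 at an unadjusted p of 0.05). Prkcz, the atypical protein kinase C zeta, had -1.13, 0.40, -1.63 and 0.89 at probe 369 and fell by 0.37 ± 0.09, and by 0.24 ± 0.06 after block-wise correction (limma adjusted p = 0.00361 and 0.0464). Its other 2 probes had 0.02 ± 0.08 and -0.01 ± 0.08, so the call belongs to 1 of 3 probes, and it ended without replicate 2 (-0.28) and replicate 3 (-0.21). At probe 273 of Plk2, a stress-inducible polo-like kinase, the value fell by 0.35 ± 0.09 (limma adjusted p = 0.00705). Block-wise correction left -0.11 ± 0.04 (adjusted p = 0.141), and the other probe of Plk2 had -0.09 ± 0.08. The call of Plk2 ended without replicate 1 (-0.39), replicate 2 (-0.14) or replicate 3 (-0.31). Without replicate 1 or 3 the SE shared by all probes was 0.14. Prkcd, protein kinase C delta, had -0.21 ± 0.08 at probe 1531 (adjusted p = 0.156) and -0.17 ± 0.05 after block-wise correction (adjusted p = 0.0925). This probe passed without blocks 3 and 4 (-0.24, adjusted p = 0.00576) and without replicate 4 (-0.27, adjusted p = 0.0186), and the other 2 Prkcd probes had 0.01 ± 0.09 and 0.07 ± 0.08.

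Immediate early genes, transcribed within minutes of MAP kinase activation, were measured at 7 probes of 5 genes, with a median of 0.036. Fos rose by 0.38 ± 0.08 and none fell (2 and 0 at an unadjusted p of 0.05). Its deposited values, -0.55, 1.15, -0.16 and 1.10, parted by dye like those of Mapk6. After block-wise correction Fos (0.29 ± 0.04), Egr1 (0.44 ± 0.04) and Fosl2 probe 651 (0.16 ± 0.03) rose (limma adjusted p = 0.0015, 5.85e-05 and 0.0232). The other Fosl2 probe had 0.04 ± 0.08 on centred arrays and 0.01 ± 0.04 after block-wise correction. The call of Fos on centred arrays ended without replicate 1 (0.44) and replicate 3 (0.32), where the SE shared by all probes was 0.14. On centred arrays Egr1 had 0.20 ± 0.09 and Fosl2 0.16 ± 0.08 (adjusted p = 0.269 and 0.417), and Egr1, in block 3, had 0.46 without replicate 2 and -0.05 without replicate 4. Myc had -0.15 ± 0.09 at its block 3 probe (adjusted p = 0.557) and, with the opposite sign, 0.09 ± 0.04 there after block-wise correction (adjusted p = 0.156). Its other probe had 0.03 ± 0.08.

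Gadd45a belongs to the p53 and DNA damage response, for which 8 other genes were measured at 13 probes with a median of -0.022. Ccng1, cyclin G1, fell at probe 289 in block 3 by 0.34 ± 0.10 (limma adjusted p = 0.0169) and had -0.02 ± 0.04 after block-wise correction (adjusted p = 0.899). Its other 2 probes had -0.27 ± 0.09 (block 3) and -0.10 ± 0.08. The call ended without replicate 1 (-0.40), replicate 2 (-0.05) or replicate 3 (-0.28). Without replicate 1 or 3 the SE shared by all probes was 0.14. None rose (3 lower and 0 higher at an unadjusted p of 0.05), and Ercc1, a DNA repair nuclease subunit, had -0.18 ± 0.09 at its block 4 probe (adjusted p = 0.322) and -0.04 ± 0.05 after block-wise correction. Sgk1 and Dusp1 are glucocorticoid targets, and 6 glucocorticoid responsive or receptor genes were measured at 9 probes with a median of -0.041. The glucocorticoid receptor Nr3c1 fell at probe 340 in block 3 by 0.35 ± 0.09 (adjusted p = 0.00705), and had -0.10 ± 0.05 after that correction (adjusted p = 0.307). Its other probes had -0.04 ± 0.08 and -0.13 ± 0.08, and the call ended without replicate 1 (-0.30), replicate 2 (-0.15) or replicate 3 (-0.39). None rose (1 lower and 0 higher at an unadjusted p of 0.05), and Cebpd, a transcription factor of the acute phase, had -0.11 ± 0.09 at its block 3 probe (adjusted p = 0.756) and, with the opposite sign, 0.17 ± 0.05 after block-wise correction (adjusted p = 0.0868).

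**Figure D4:**
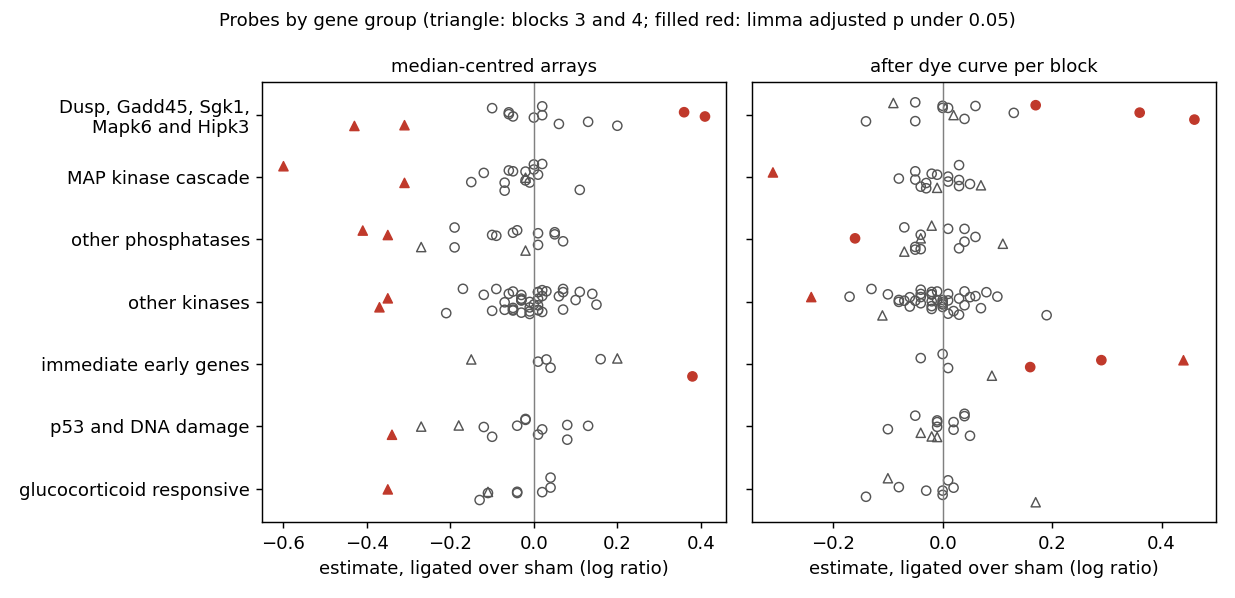
Estimate (x axis, log ratio) of every probe of the 7 genes and of the 6 lists (rows), on median-centred arrays at left and after block-wise correction at right; triangles are probes of blocks 3 and 4, and filled red symbols passed an adjusted p of 0.05 in limma, shown for the 7 genes as a description. All 8 listed probes that fell at left are triangles, and at right the highest of the 7 genes are Hipk3 at 0.46 and Mapk6 at 0.36.

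Markers of liver cell types were measured for 10 of 41 listed genes, at 14 probes, with estimates from -0.30 to 0.34. No listed cholangiocyte, macrophage or lymphoid marker was among them. Of the hepatocyte markers none passed, with -0.24 ± 0.08 for Ttr, -0.23 ± 0.08 and -0.04 ± 0.08 for the Serpina1 probes and -0.15 ± 0.08 for Apoa1 (0 higher and 2 lower at an unadjusted p of 0.05 in limma). After block-wise correction Ttr fell by 0.17 ± 0.04 (adjusted p = 0.0279). Of the stellate cell markers Col1a1 rose at 1 of 2 probes by 0.34 ± 0.08 (adjusted p = 0.00526), and by 0.35 ± 0.06 after that correction (adjusted p = 0.00582). The other Col1a1 probe had 0.10 ± 0.08 and Vim, also on that list, had 0.00 ± 0.08 on centred arrays, and neither passed. S100a9, a neutrophil marker, had 0.02 ± 0.08 and 0.15 ± 0.09, and the 3 endothelial markers were between -0.18 and -0.05. The platelet gene Pf4 fell at its block 3 probe by 0.30 ± 0.09 (adjusted p = 0.0337), and had -0.05 ± 0.03 after the correction, with 0.14 ± 0.08 at its other probe. The part of cell composition in the values of Mapk6 and Hipk3 was not tested.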

How the data were processed

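Ligated and sham rat liver mRNA was hybridised to 4 two-colour arrays. The deposited table holds log ratios of 1936 probes, with none missing. For scanner, background correction, normalization and log base nothing is stated in the labels. Arrays were centred on their medians. Operation and dye were estimated jointly for each probe in limma 3.58.1 in R 4.3.3, over all probes, with Benjamini-Hochberg adjustment. The fit leaves 2 residual degrees of freedom and takes 76.2 from limma's prior, so SE and p-values depend mainly on pooled variance. Fits without an array share 1 SE over all probes, 0.14 without replicate 1 or 3 and 0.086 without replicate 2 or 4. The dye curve is a loess (span 0.5, degree 1) of an array's values on the dye contrast of each probe, fitted per array or per block. A single gene symbol was held by 1432 probes (958 genes), and 1429 matched a current gene ID in a RefSeq table of GRCr8, from which the promoter windows also came. Members, lists and settings were chosen with earlier results of these data known. Named were every member probe, every listed probe past the threshold on centred arrays or after the dye curve per block, the largest other probe of each list, and the 2 nearest genes of each member. The fit was tested on simulated data with equal, independent noise for every probe and no block shift, so that test does not cover the block deviations seen here. A block shift was simulated only for the dye curve per block. Alternatives were no centring, equal scaling, the reverse reading by dye, no dye term, both dye curves, fewer blocks, a robust prior, averaged probes and leaving out each array. The number of arrays limits the precision.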

Additional observations from a re-analysis of the deposited data

Results flagged for a closer look

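Of 32 probes screened (the 14 of the 7 genes and the named probes of the lists), 3 had 1 deposited value far from the other 3. Deposited and centred values were both screened. Values part by dye and probes were chosen with these data in view, so no chance rate is given. All 3 values come from array 2 and all 3 probes lie in block 3. They were -1.35 for Dusp1 probe 291, -1.08 for Sgk1 probe 342 and -1.21 for Ptp4a2 probe 318.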

How the results depend on the processing

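Counts of probes past an adjusted p of 0.05 in limma depended strongly on the setting. They are given for all probes (111 on centred arrays), for the 7 genes (4), and for the MAP kinase cascade (2), other phosphatases (2), other kinases (2), immediate early (1), p53 (1) and glucocorticoid lists (1), in this order. Without centring they were 3, 0, 0, 0, 0, 0, 0 and 0 (176, 2, 1, 2, 3, 2, 0 and 0 at an unadjusted p of 0.05). Without the dye term they were 0 throughout (5 of all probes and 0 of the others at an unadjusted p of 0.05). With a dye curve per array they were 7 over all probes and 0 elsewhere (174, 3, 2, 1, 1, 2, 0 and 0 unadjusted). With Cy5 over Cy3 they were 1599, 9, 15, 13, 33, 4, 7 and 6. With a dye curve per block the lists had 1, 1, 1, 3, 0 and 0, and all probes 125. Equal scaling gave 62 over all probes, and 1, 1 and 0 for the cascade, phosphatase and p53 lists. A robust prior gave 67 over all probes, and 1, 0 and 0 for the same 3 lists. Averaged probes gave 40 of 958 genes, and 1, 1, 0, 0 and 0 for the cascade, phosphatase, kinase, p53 and glucocorticoid lists. Without blocks 3 and 4 they were 135, 2, 0, 2, 2, 1, 0 and 0. Leaving out each array gave 12 to 241 over all probes, 0 to 5 for the 7 genes, and 0 to 2, 0 to 4, 0 to 4, 0 to 2, 0 to 3 and 0 to 2 for the lists.

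The median range between probes of a gene, over Dusp1, Dusp6, Gadd45a and Sgk1, was 0.28. It was 1 with Cy5 over Cy3 and 0.21 to 0.38 without each array. Without blocks 3 and 4 Dusp1 kept a single probe and had no range. The median over Dusp6, Gadd45a and Sgk1 alone was then 0.094, so it is not directly comparable. Signs turned with Cy5 over Cy3 for Dusp1 probe 291 (1.12), Sgk1 probe 342 (1.06), Mapk14 256 (0.77), Plk2 273 (0.27), Ccng1 289 (1.03), Ptp4a2 318 (1.08), Egfr 327 (0.86), Ppp5c 338 (0.92), Nr3c1 340 (0.33), Cebpd 363 (0.68), Mapk12 741 (0.74), Prkcd 1531 (0.48), Ppp1ca 1665 (0.51), and with the dye curve per block for Sgk1 probe 342 (0.02). Cebpd 363 (0.17) and Myc 305 (0.09), short of the threshold on centred arrays, also turned with the block curve. With Cy5 over Cy3 so did Sgk1 probe 1 (0.56) and probe 1273 (0.15), Dusp6 probe 673 (-0.47) and probe 1872 (-0.01), Gadd45g (-0.15) and Myc 305 (0.14). Of 152 values of single probes of the 7 genes under other settings, 134 stayed near the value on centred arrays. The margin was a fixed multiple of the limma SE on centred arrays, which is mostly pooled over probes. The causes were not tested. Each log ratio already sets a ligated pool against a sham pool on the same array. No pairing between arrays was used, because all arrays form 1 group.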
